A study of Mus musculus with 6 samples.

Results

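The 9 genes described here encode transcription regulators known for their part in blood stem cells: Mecom, Prdm16, Meis1, Mllt3, Hlf, Gata2, Runx1, Erg and Fli1. They were taken by gene name from a deposited table of 55487 genes, each name matching 1 row, and all 9 passed the filter on low counts that left 15257 genes for testing. The table holds poly-A RNA-seq of LSK cells from mouse bone marrow, the lineage-negative fraction positive for Sca-1 and Kit that contains the haematopoietic stem cells and multipotent progenitors. The 3 Mc5r-null libraries came from Mc5r-/- mice, which lack the melanocortin 5 receptor, and the 3 wild-type libraries from littermates; the series describes both as irradiated, and dose, time, age and the deleted part of Mc5r are not given in the sources used here. The labels do not say which or how many mice a library holds. SDs therefore describe how far the libraries vary, and p-values set the genotype difference against that variation, which may be technical.

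Blood stem cells are kept undifferentiated by a small set of DNA-binding proteins that act in shared complexes at common enhancers. GATA2, RUNX1, ERG and FLI1 are known to occupy many of these enhancers together with TAL1, LYL1 and LMO2, while MEIS1 binds DNA beside other homeodomain proteins such as HOX factors. Levels of HLF, MECOM, MEIS1, PRDM16 and MLLT3 are known to be highest in the most immature cells and to fall as progenitors commit to a lineage, whereas RUNX1 and FLI1 remain in use in several lineages.

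Counts summed to between 13983016 and 14076870 in the Mc5r-null libraries and to between 14903723 and 14953169 in the wild-type libraries. The targeted gene Mc5r had 0, 0 and 1 counts in Mc5r-null libraries, against 181, 157 and 198 counts in wild-type libraries. Of the LSK genes, Flt3 averaged 529 ± 3.55 CPM (the count scaled to the total of all gene counts) in Mc5r-null and 391 ± 2.17 CPM in wild type, Kit 256 ± 5.21 CPM in Mc5r-null and 241 ± 2.95 CPM in wild type, and the Sca-1 gene Ly6a 66.6 ± 9.54 CPM in Mc5r-null and 59.3 ± 10.6 CPM in wild type (SD, n = 3 each). Flt3 and Kit passed as higher in Mc5r-null and Ly6a did not pass (edgeR adjusted p = 2.5e-07, 0.00403 and 0.446). With Cd34, 3 of 4 LSK markers were higher. Xist, the RNA of the inactive X chromosome, had 0, 2 and 2 counts in Mc5r-null libraries and 1224, 1167 and 1281 counts in wild-type libraries. Of 4 Y-linked genes, Eif2s3y had 53.7 to 62.5 CPM in Mc5r-null and 57.5 to 61.0 CPM in wild-type libraries, Uty 12.4 to 14.1 CPM in Mc5r-null and 10.7 to 12.7 CPM in wild-type libraries, Kdm5d 22.0 to 24.4 CPM in Mc5r-null and 19.3 to 21.1 CPM in wild-type libraries and Ddx3y 80.5 to 85.5 CPM in Mc5r-null and 50.7 to 75.7 CPM in wild-type libraries. Eif2s3y, Uty and Ddx3y did not pass, and Kdm5d was higher in Mc5r-null, though neither with DESeq2, nor under the replicate block, nor in the absence of any 1 library other than Mc5r-null replicate 2 (edgeR adjusted p = 0.714, 0.299, 0.0794 and 0.0374 for Eif2s3y, Uty, Ddx3y and Kdm5d). The labels do not give the sex of the mice. What differs with Xist between the libraries and the genotype cannot be told apart.

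In Mc5r-null LSK cells, Mecom, Prdm16, Meis1, Mllt3 and Erg rose by between 1.18-fold and 1.62-fold, and Fli1 fell by 1.09-fold. Hlf, Gata2 and Runx1 did not pass. These 5 higher and 1 lower of 9 members (edgeR quasi-likelihood test, Benjamini-Hochberg adjusted p under 0.05 over all genes tested) compare with 16.8% of all tested genes called higher and 16.1% called lower. The median log2 fold change of the 9 was 0.53, beside -0.0047 over all genes tested. The libraries of the genotypes did not overlap for 6 members on the higher side and for Fli1 on the lower side, and for 21.1% of all tested genes on the higher and 28.7% on the lower side (49.8% together). DESeq2 called 6 members higher and 0 lower, beside 10.9% and 9.48% of its tested genes; edgeR with the replicate number as a block called 5 higher and 1 lower, beside 14.8% and 14.1%. In RNA pooled from many cells, a difference in the share of cells that use a gene and a difference in RNA per cell cannot be told apart.

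The sequences before the transcription starts of the 5 factors that rose are shown because these genes moved in the same direction. They are taken from RefSeq on GRCm38.p6, which lists starts for 8 of the 9 members, Fli1 having none. Each is the part of the 250 bases before the start that lies outside annotated exons of its own gene. Capitals mark matches, on either strand and with overlaps between motifs allowed, to AGGAAG (the ETS core bound by ERG and FLI1), AGATAA (the core of the GATA family), TGTGGT (the RUNX core), TGACAG (the MEIS core), TTANGTAA (the HLF site) or CAGNTG (the E-box bound by TAL1 and LYL1).
Mecom, chr3:30509823-30510009, minus strand: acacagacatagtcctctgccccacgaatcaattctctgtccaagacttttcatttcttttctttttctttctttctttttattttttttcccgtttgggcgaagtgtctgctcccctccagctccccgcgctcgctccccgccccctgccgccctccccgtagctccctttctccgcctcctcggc
Prdm16, chr4:154636874-154637123, minus strand: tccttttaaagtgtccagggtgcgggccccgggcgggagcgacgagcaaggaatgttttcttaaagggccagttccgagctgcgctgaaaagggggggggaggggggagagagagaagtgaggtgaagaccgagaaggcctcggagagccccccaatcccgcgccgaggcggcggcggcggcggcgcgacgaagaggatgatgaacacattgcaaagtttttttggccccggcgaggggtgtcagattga
Meis1, chr11:19018986-19019219, minus strand: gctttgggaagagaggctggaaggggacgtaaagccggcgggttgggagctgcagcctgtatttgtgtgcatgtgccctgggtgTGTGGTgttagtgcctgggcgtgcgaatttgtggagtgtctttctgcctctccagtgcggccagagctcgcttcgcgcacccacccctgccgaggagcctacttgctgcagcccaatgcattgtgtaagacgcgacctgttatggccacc
Mllt3, chr4:88033408-88033657, minus strand: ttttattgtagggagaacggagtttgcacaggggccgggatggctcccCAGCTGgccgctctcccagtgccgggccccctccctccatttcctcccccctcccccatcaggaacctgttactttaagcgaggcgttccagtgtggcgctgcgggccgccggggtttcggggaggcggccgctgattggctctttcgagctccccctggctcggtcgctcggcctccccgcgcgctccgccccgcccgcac
Erg, outermost start, chr16:95586594-95586843, minus strand: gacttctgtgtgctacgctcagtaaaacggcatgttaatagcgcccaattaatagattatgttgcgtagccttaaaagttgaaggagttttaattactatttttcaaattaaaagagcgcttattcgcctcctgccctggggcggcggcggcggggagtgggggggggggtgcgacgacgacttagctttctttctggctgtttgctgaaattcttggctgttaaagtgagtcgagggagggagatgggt
Erg, innermost start, chr16:95459349-95459598, minus strand: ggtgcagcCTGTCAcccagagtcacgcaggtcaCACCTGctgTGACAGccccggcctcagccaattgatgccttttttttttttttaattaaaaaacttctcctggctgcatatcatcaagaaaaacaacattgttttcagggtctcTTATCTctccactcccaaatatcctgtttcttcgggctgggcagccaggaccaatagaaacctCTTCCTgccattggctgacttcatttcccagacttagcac
The Mecom stretch shown had no match, the E-box of its full window lying in an annotated exon, and the Prdm16 window and the outermost Erg window had none either. The Mecom stretch lies in the body of its gene, which reaches position 30548008. Meis1 held 1 RUNX match and Mllt3 held 1 E-box. RefSeq lists 2 starts each for Mecom and Mllt3 and 3 for Erg. The other Mecom window held 1 MEIS match, the other Mllt3 window 1 MEIS match and 1 E-box, and the other Erg window none. The innermost Erg window, shown because it held the most kinds of match and lying in the body of the gene, held 1 ETS, 1 GATA, 1 E-box and 2 MEIS matches. Of 32851 windows of 250 bases over all genes, 29.5% held the ETS core, 9.99% GATA, 14.0% RUNX, 15.9% MEIS, 2.06% the HLF site and 44.8% the E-box, and 26.2% held none of the 6. GC content was 50.8% in the full Mecom window, 62.4% in that of Prdm16, 59.6% in that of Meis1, 69.2% in that of Mllt3, 48.8% in the outermost and 47.2% in the innermost Erg window, beside a median of 52.4% over all windows. In the windows not shown it was 50.4% for Mecom, 45.2% for Mllt3 and 36.0% for Erg. A match is only a run of letters, and no match says nothing of binding elsewhere.

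Mecom and Prdm16 encode related zinc finger proteins with a PR domain, both needed to maintain blood stem cells in mice. Mecom (ENSMUSG00000027684, GRCm38 chromosome 3, positions 29951296 to 30548008, minus strand) had 24.3, 21.2 and 24.7 CPM in Mc5r-null libraries, against 13.4, 16.5 and 14.2 CPM in wild-type libraries. Every Mc5r-null library stood above every wild-type library, and the ratio of any such pair lay between 1.28 and 1.84. The log2 fold change was 0.70 ± 0.099 (SE; edgeR adjusted p = 0.000974), the largest of the 9. The locus carries 11 coding transcripts whose starts span 512159 bases, and the gene-level counts do not separate the long MDS1-EVI1 form from the shorter EVI1 form. On its own strand Mecom overlaps Gm38197, whose counts came to 5.78% of those of Mecom. Gm38197 was also called higher (log2 fold change 1.30, edgeR adjusted p = 0.0400), and no strand setting separates reads of the pair. Prdm16 (ENSMUSG00000039410, chromosome 4, positions 154316125 to 154636873, minus strand) had 16.2, 13.4 and 15.6 CPM in Mc5r-null libraries, against 11.5, 10.9 and 9.73 CPM in wild-type libraries, again without overlap. Its log2 fold change was 0.53 ± 0.10 (SE; edgeR adjusted p = 0.00541). Per length, the pair were the least abundant of the 9 in both genotypes, and their library values overlapped each other there. Mecom averaged 1.05 ± 0.0840 FPKM in Mc5r-null and 0.660 ± 0.0723 FPKM in wild type, and Prdm16 0.983 ± 0.0956 FPKM in Mc5r-null and 0.697 ± 0.0585 FPKM in wild type (SD, n = 3 each).

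**Figure D1:**
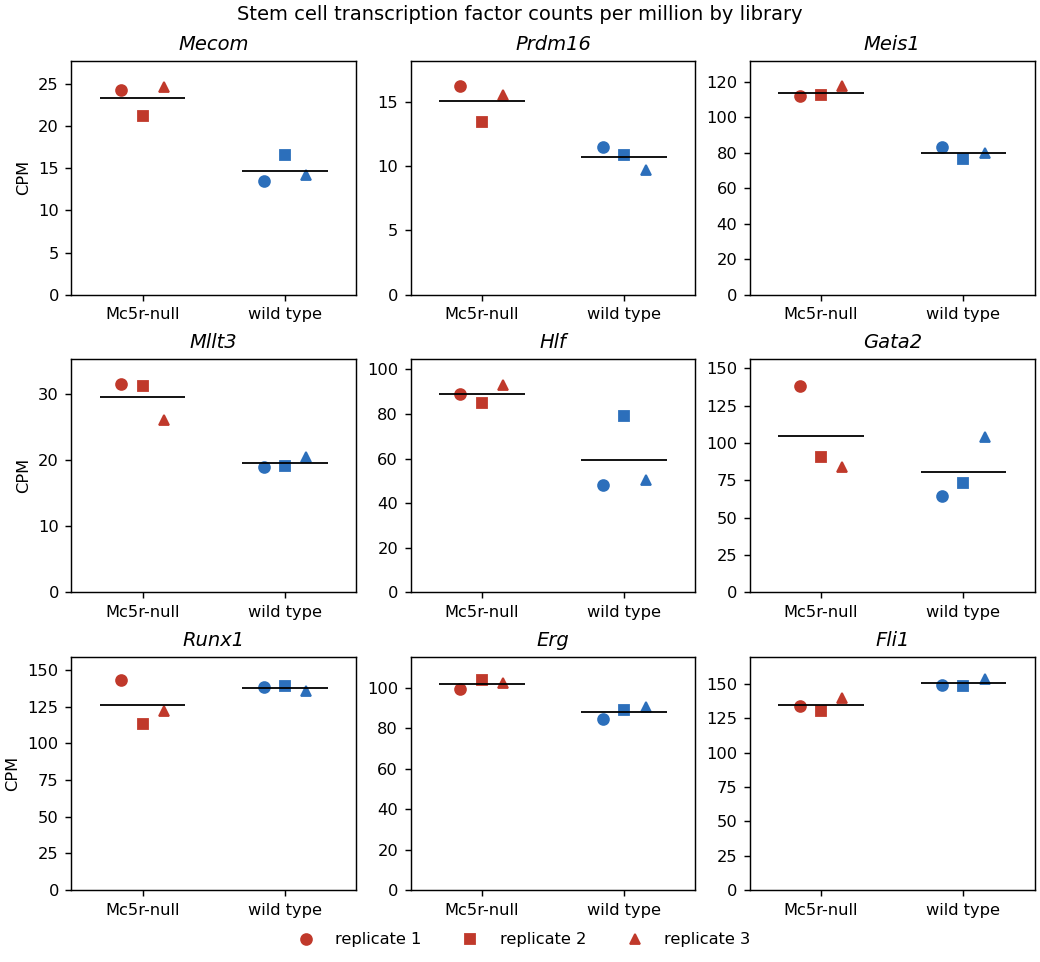
CPM of each of the 9 factors in every library, Mc5r-null left of wild type, with each axis starting at 0. Symbols mark the replicate number, and the labels do not say that it links libraries across genotypes. The black line is the mean of 3 libraries. The genotypes do not overlap for 7 factors, and overlap for Gata2 and Runx1.

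Meis1 encodes a homeodomain protein that binds DNA with HOX partners and cooperates with HOXA9 in MLL-rearranged leukaemia. Meis1 (ENSMUSG00000020160, chromosome 11, positions 18879817 to 19018985, minus strand) had 112, 112 and 118 CPM in Mc5r-null libraries, against 83.3, 76.7 and 80.0 CPM in wild-type libraries. The lowest Mc5r-null library was 1.34 times the highest wild-type library. The log2 fold change was 0.54 ± 0.040 (SE; edgeR adjusted p = 2.3e-05), the smallest p of the members. Meis1 overlaps the antisense gene Gm16140, whose counts came to 2.20% of its own. Without the strand setting of the counting, reads of the pair cannot be told apart. On its own strand it overlaps Gm37818, with 3.40% of its counts and no call (edgeR adjusted p = 0.0764). Also on that strand is 2900018N21Rik, with 1.29% and called higher (log2 fold change 1.05, edgeR adjusted p = 0.00626). No strand setting separates reads of Meis1 from those of these genes.

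Mllt3 encodes AF9, a reader of acylated histones that recruits DOT1L and elongation factors and is known to maintain human blood stem cells. It is not itself a sequence-specific DNA-binding protein. Mllt3 (ENSMUSG00000028496, chromosome 4, positions 87769925 to 88033364, minus strand) had 31.5, 31.3 and 26.0 CPM in Mc5r-null libraries, against 18.9, 19.2 and 20.5 CPM in wild-type libraries. The groups were apart, with Mc5r-null replicate 3 the closest to wild type. Its log2 fold change was 0.63 ± 0.089 (SE; edgeR adjusted p = 0.000922).

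Hlf encodes a PAR-type leucine zipper factor whose expression marks the most immature cells of the marrow. Hlf (ENSMUSG00000003949, chromosome 11, positions 90336536 to 90390895, minus strand) had 89.2, 85.0 and 93.0 CPM in Mc5r-null libraries, against 48.2, 79.2 and 50.4 CPM in wild-type libraries. Wild-type replicate 2 lay 1.64 times above the lowest wild-type library and close to the Mc5r-null values, though below all of them. The log2 fold change was 0.62 ± 0.22 (SE; 95% interval 0.037 to 1.20 before adjustment; edgeR adjusted p = 0.10). Without wild-type replicate 2 it was 0.88 with an edgeR adjusted p of 2.3e-05, and with DESeq2 on all 6 libraries Hlf passed (adjusted p = 0.00316). The gene whose profile over the 6 libraries was most like that of Hlf was Ddx3y, with 84.7, 80.5 and 85.5 CPM in Mc5r-null libraries and 52.6, 75.7 and 50.7 CPM in wild-type libraries, so it too was high in wild-type replicate 2. Of the other Y-linked genes, Eif2s3y had 53.7, 62.5 and 53.8 CPM in Mc5r-null libraries and 60.1, 61.0 and 57.5 CPM in wild-type libraries. In wild-type libraries Uty had 12.7, 12.6 and 10.7 CPM and Kdm5d 19.3, 21.1 and 20.5 CPM. Wild-type replicate 2 was thus the highest of its genotype for Eif2s3y and Kdm5d, by a smaller margin than for Ddx3y, but not for Uty. The next gene most like Hlf was the ubiquitin-like gene Ubl3 (root mean square difference of centred log2 CPM 0.0842, and 0.0810 for Ddx3y, over the 6422 genes averaging 5 log2 CPM or more).

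Gata2 encodes the GATA factor of stem cells, which is also used in mast cells and basophils. Gata2 (ENSMUSG00000015053, chromosome 6, positions 88193891 to 88207032, plus strand) had 138, 90.9 and 84.1 CPM in Mc5r-null libraries, against 64.5, 72.9 and 104 CPM in wild-type libraries. The groups overlapped, with Mc5r-null replicate 1 and wild-type replicate 3 standing above the others of their genotype. The log2 fold change was 0.41 ± 0.30 (SE; 95% interval -0.40 to 1.22; edgeR adjusted p = 0.374), and it was 0.15 without Mc5r-null replicate 1 and 0.64 without wild-type replicate 3, with no call in either case. Basophil and mast cell markers were lower in Mc5r-null, 6 of 7 tested passing, beside 16.1% of all tested genes called lower. Their summed level was 168 to 176 CPM in Mc5r-null libraries and 422 to 429 CPM in wild-type libraries. The part of these cells in the Gata2 counts was not tested. The mast cell gene Cma1 had no count in any library. No gene came within a root mean square difference of 0.1 of the Gata2 profile; the closest were Jade1 (0.194) and Nap1l4 (0.206).

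Runx1 encodes the DNA-binding partner of CBFB, required for the first blood stem cells of the embryo. Runx1 (ENSMUSG00000022952, chromosome 16, positions 92601466 to 92826149, minus strand) had 143, 113 and 122 CPM in Mc5r-null libraries, against 139, 139 and 136 CPM in wild-type libraries. The wild-type libraries agreed within 1.02-fold, and the Mc5r-null libraries lay on both sides of them. The log2 fold change was -0.09 ± 0.086 (SE; 95% interval -0.31 to 0.12; edgeR adjusted p = 0.464). Without Mc5r-null replicate 1, the highest of its group, it was -0.20 with an edgeR adjusted p of 0.00899. The starts of the coding transcripts of Runx1 span 130654 bases, and the counts do not separate those of its distal promoter from those of its proximal promoter.

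Erg and Fli1 are closely related ETS factors, and they moved in opposite directions. Erg (ENSMUSG00000040732, chromosome 16, positions 95359169 to 95586593, minus strand) had 99.0, 104 and 102 CPM in Mc5r-null libraries, against 84.3, 89.0 and 90.4 CPM in wild-type libraries. Erg rose by 0.24 ± 0.038 (SE; edgeR adjusted p = 0.00168), with no overlap of the groups. Fli1 (ENSMUSG00000016087, chromosome 9, positions 32422204 to 32542861, minus strand) had 134, 131 and 140 CPM in Mc5r-null libraries, against 149, 149 and 153 CPM in wild-type libraries. It fell by 0.12 ± 0.032 on the log2 scale (SE; edgeR adjusted p = 0.0184), and the highest Mc5r-null library was 0.942 times the lowest wild-type library. DESeq2 did not call Fli1 (adjusted p = 0.179), nor did edgeR in the absence of Mc5r-null replicate 1, Mc5r-null replicate 2 or wild-type replicate 3 (edgeR adjusted p = 0.0514, 0.0571 and 0.0557). A ratio of the pair within a library does not depend on scaling between libraries. The ratio of Erg to Fli1 in FPKM was 0.284, 0.305 and 0.280 in Mc5r-null libraries, against 0.217, 0.230 and 0.227 in wild-type libraries. These groups did not overlap (exact permutation test, two-sided p = 0.1, the smallest that 3 libraries against 3 allow). Since Erg lay higher and Fli1 lower in every Mc5r-null library than in every wild-type library, the ratios had to stand apart. This p is therefore no further support.

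**Figure D2:**
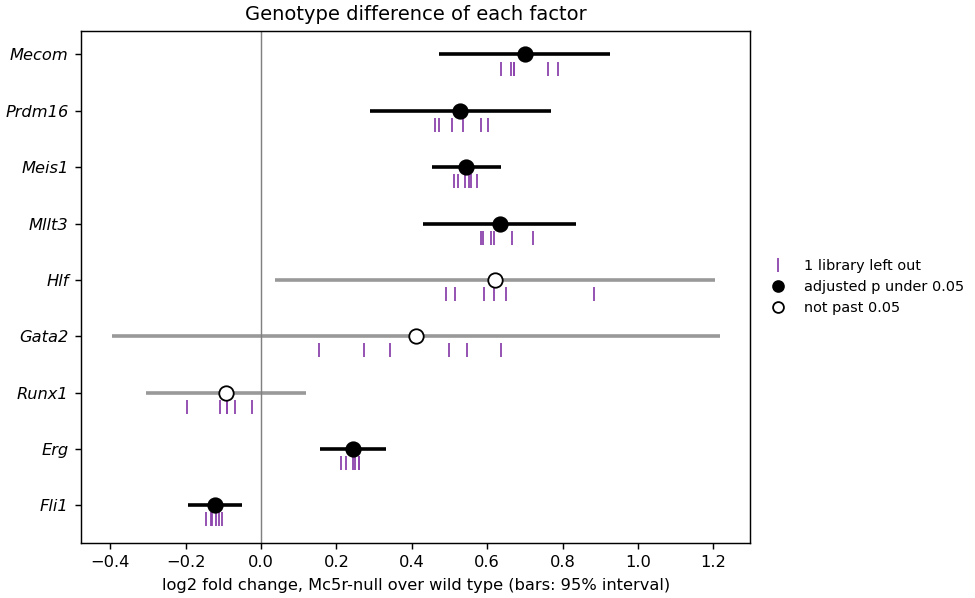
Fitted log2 fold change of each factor, Mc5r-null over wild type, as points with 95% intervals before adjustment; filled points have an adjusted p under 0.05 and purple ticks are the values with 1 library left out. Mecom, Prdm16, Meis1, Mllt3 and Erg lie to the right of 0 whichever library is left out. So do Hlf (0.49 to 0.88) and Gata2 (0.15 to 0.64), which are not called with all libraries.

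Per length, Fli1 was the most abundant of the 9 in both genotypes, at 38.6 ± 1.36 FPKM in Mc5r-null and 43.0 ± 0.734 FPKM in wild type (SD, n = 3 each). In Mc5r-null the order was then Gata2 (12.3 ± 3.48 FPKM), Erg (11.2 ± 0.266), Hlf (7.68 ± 0.343), Runx1 (6.85 ± 0.840), Meis1 (5.08 ± 0.145), Mllt3 (1.93 ± 0.202), Mecom and Prdm16. Library values overlapped between the neighbours Gata2 and Erg, Hlf and Runx1, and Mecom and Prdm16. In wild type the order after Fli1 was Erg (9.67 ± 0.351 FPKM), Gata2 (9.46 ± 2.45), Runx1 (7.48 ± 0.102), Hlf (5.11 ± 1.49), Meis1 (3.56 ± 0.146), Mllt3 (1.28 ± 0.0567), Prdm16 and Mecom. There the overlapping neighbours were Erg and Gata2, and Prdm16 and Mecom. The places of Hlf and Runx1 were thus exchanged between the genotypes, with overlap in Mc5r-null alone. Relative to Runx1, Meis1 stood at 0.640, 0.816 and 0.791 in Mc5r-null libraries and at 0.493, 0.453 and 0.484 in wild-type libraries as a ratio of FPKM values, again without overlap (exact permutation test, two-sided p = 0.1, the smallest possible). The ratios of Gata2 to Runx1 and of Mecom to Prdm16 were also taken, and they overlapped between the genotypes (exact permutation test, two-sided p = 0.2 each).

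**Figure D3:**
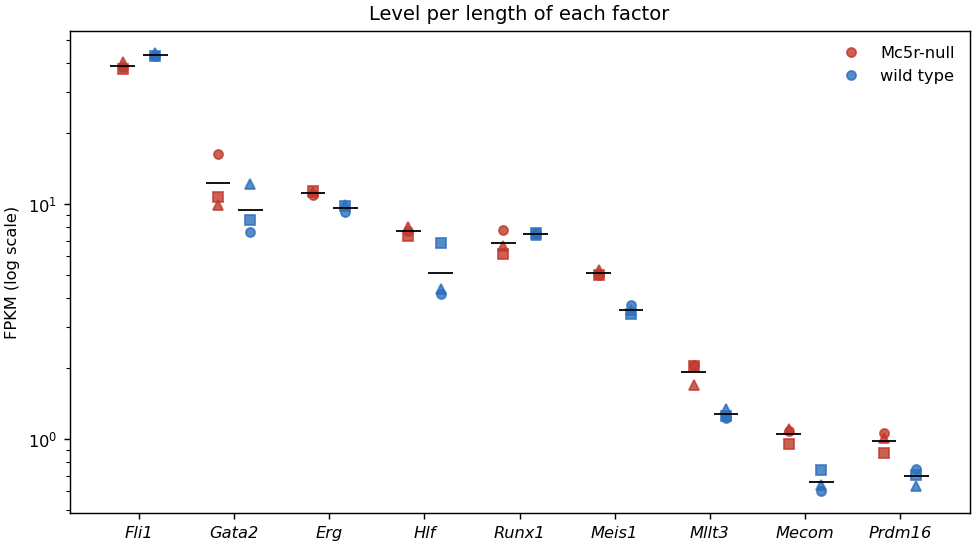
FPKM of each factor in every library on a log axis, ordered by the Mc5r-null mean, with Mc5r-null left of wild type and black lines for the means of 3 libraries. The levels span from Fli1 at about 39 FPKM to Prdm16 at 0.98 FPKM in Mc5r-null.

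The 3 factors that did not pass were those whose libraries varied most within a genotype. The variance of a gene's 3 counts divided by their mean, after scaling to a common total, has a median of 0.693 where counting noise alone acts. It was 121 in Mc5r-null and 78.3 in wild type for Gata2, 2.56 in Mc5r-null and 73.0 in wild type for Hlf, and 27.5 in Mc5r-null and 0.370 in wild type for Runx1. Over all genes with a mean of at least 10 counts the median was 1.08 in Mc5r-null and 1.03 in wild type, and 7.17% of genes in Mc5r-null and 6.83% in wild type exceeded 10, so the median gene varied more than counting noise gives. The other 6 factors lay between 0.559 and 4.69. The libraries that stood apart were not the same ones: Mc5r-null replicate 1 for Gata2 and Runx1, wild-type replicate 2 for Hlf and wild-type replicate 3 for Gata2. Depth was alike in all libraries of a genotype, and what made these libraries differ for these genes was not tested.

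**Figure D4:**
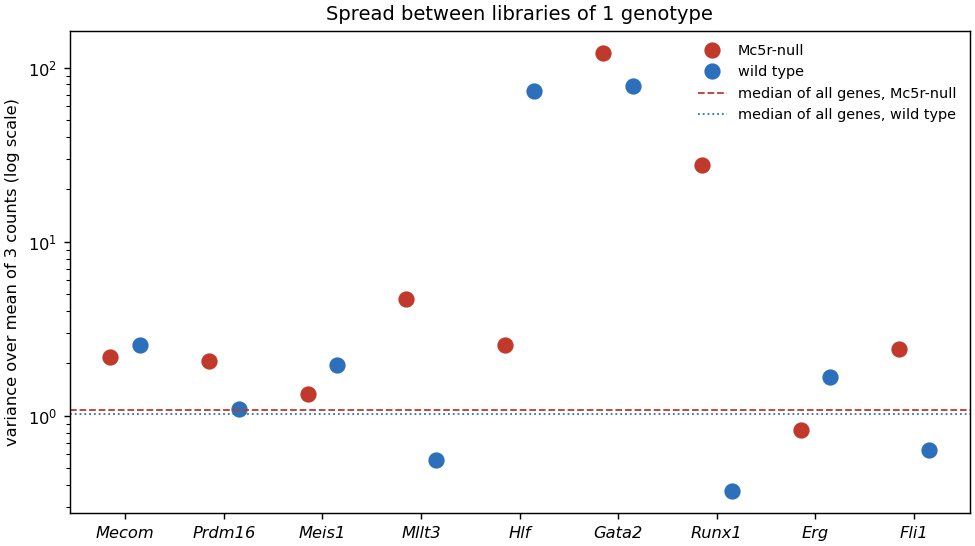
Variance over mean of the 3 scaled counts of each factor within each genotype on a log axis, with lines for the median of all genes. Gata2 in both genotypes, Hlf in wild type and Runx1 in Mc5r-null lie above 10, and the other points lie below 5.

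Of 15 genes of DNA-binding partners and cofactors of these factors, 5 were higher and 3 lower in Mc5r-null, beside 16.8% and 16.1% of all tested genes, with a median log2 fold change of 0.05. With DESeq2 5 were higher and 0 lower, beside 10.9% and 9.48% of its tested genes. At an edgeR adjusted p under 0.01 4 were higher and 0 lower, beside 1552 and 1444 of the 15257 genes tested. Aff4, a scaffold of the elongation complex that AF9 joins, rose to 111 ± 5.22 CPM in Mc5r-null, against 93.4 ± 0.201 CPM in wild type (SD, n = 3 each; log2 fold change 0.29, edgeR adjusted p = 0.000629). Ldb1, which bridges LMO2 and GATA complexes, rose 1.13-fold. Hoxa9, the HOX partner of MEIS1, had a log2 fold change of 0.30 (edgeR adjusted p = 0.0185), a call lost without Mc5r-null replicate 1 or 2 or wild-type replicate 2 or 3. Cbfb, the partner of RUNX1, had a log2 fold change of -0.11 (edgeR adjusted p = 0.0213), but did not pass with DESeq2, under the replicate block or in the absence of Mc5r-null replicate 2 or 3 or wild-type replicate 3. The other factors of the shared enhancers did not pass: Tal1 had 56.3 ± 1.69 CPM in Mc5r-null and 57.0 ± 2.03 CPM in wild type, Lyl1 127 ± 7.73 CPM in Mc5r-null and 126 ± 3.22 CPM in wild type, and Lmo2 279 ± 51.9 CPM in Mc5r-null and 260 ± 26.2 CPM in wild type (SD, n = 3 each). A p that misses the threshold does not show that their levels are equal.

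Of 16 tested relatives from the same protein families, 6 were higher and 1 lower, beside 16.8% and 16.1% of all tested genes, with a median of 0.24. Etv6, an ETS repressor needed by adult stem cells, rose 1.18-fold to 382 ± 2.30 CPM in Mc5r-null, against 331 ± 1.72 CPM in wild type (SD, n = 3 each). Prdm1, the PR-domain factor of plasma cells, rose 2.17-fold, and plasma cell markers, of which it is 1, rose in 7 of 7 cases, with a summed level of 21170 to 23700 CPM in Mc5r-null libraries and 6873 to 6932 CPM in wild-type libraries; their part in the Prdm1 level was not tested. Nfil3, which competes for the same DNA sites as HLF, was the relative that fell, 1.71-fold, while the PAR-type relative Dbp rose (log2 fold change 0.64, edgeR adjusted p = 0.00378). Runx3 rose by 0.24 on the log2 scale (edgeR adjusted p = 0.0019).

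Of 15 other regulators of stem cells, 8 were higher and 2 lower, beside 16.8% and 16.1% of all tested genes, with a median of 0.38. Msi2, an RNA-binding protein gene of stem cells, rose 1.58-fold to 213 ± 1.86 CPM in Mc5r-null, against 138 ± 2.56 CPM in wild type, and Foxo3, which guards stem cell quiescence, rose 1.52-fold (SD, n = 3 each). Myb, required by proliferating progenitors, fell 1.14-fold. The count of 8 was 3 without Mc5r-null replicate 1 or 3, 5 without Mc5r-null replicate 2 or wild-type replicate 1 or 2, 4 with the replicate number as a block and 5 with DESeq2. Of 14 transcription factors of committed lineages, 1 was higher and 5 were lower, beside the same shares of all tested genes, with a median of -0.23. The granulocyte factors Cebpe and Gfi1 fell 1.70-fold and 1.25-fold and the B cell factor Pax5 fell to 7.43 ± 1.03 CPM in Mc5r-null, against 15.3 ± 0.729 CPM in wild type, while the lymphoid factor Ikzf3 rose 2.17-fold (SD, n = 3 each). Myeloid progenitor markers fell as well, 4 of 4, with a summed level of 8611 to 8944 CPM in Mc5r-null libraries and 13450 to 14510 CPM in wild-type libraries.

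Of 16 genes known as targets of these factors, 7 were higher and 6 lower, beside 16.8% and 16.1% of all tested genes, with a median of 0.06. The smallest p-values belonged to genes that fell: the mast cell protease gene Cpa3, a GATA2 target, fell 2.66-fold, Csf1r, which RUNX1 and PU.1 activate, 1.76-fold and the histamine synthesis gene Hdc 1.42-fold. Among those that rose were the angiopoietin receptor gene Tek (log2 fold change 0.52, edgeR adjusted p = 0.00564), Cd34 (0.28, edgeR adjusted p = 0.000112) and Epas1 (2.09, edgeR adjusted p = 0.00208). Epas1, a hypoxia factor gene, had 2.45 ± 0.669 CPM in Mc5r-null and 0.581 ± 0.236 CPM in wild type (SD, n = 3 each). The other hypoxia factor gene of the list, Hif1a, fell (log2 fold change -0.16, edgeR adjusted p = 0.00916). It had 74.2 ± 1.66 CPM in Mc5r-null and 84.7 ± 1.55 CPM in wild type (SD, n = 3 each). The megakaryocyte gene Pf4 fell as well (log2 fold change -1.05, edgeR adjusted p = 0.00573).

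**Figure D5:**
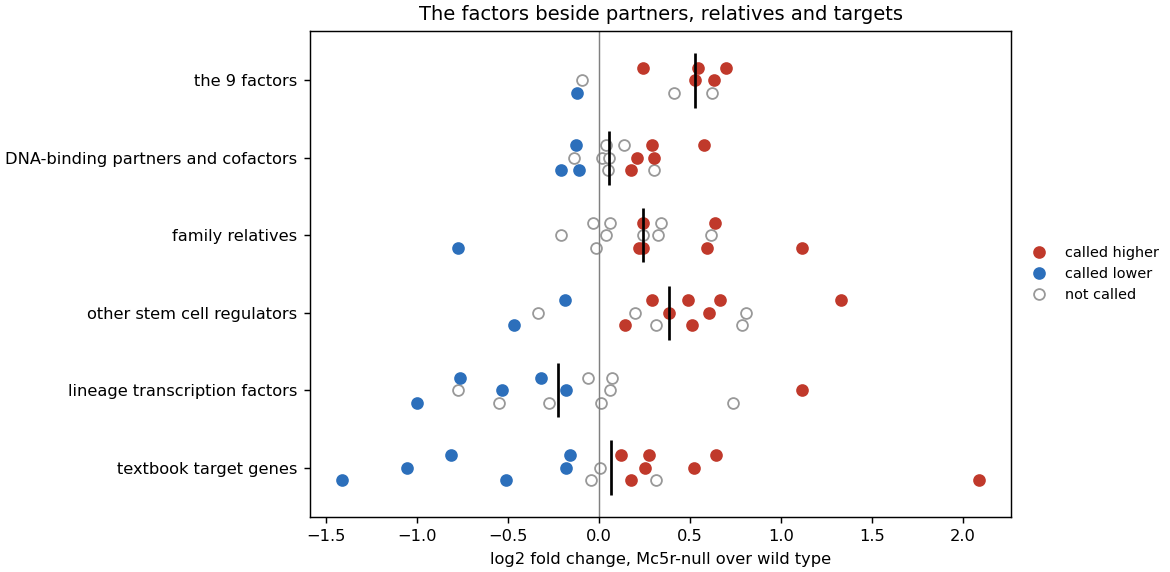
Fitted log2 fold change, Mc5r-null over wild type, of every tested gene in each list, with red and blue for genes called higher and lower, open circles for genes not called and black lines for medians. The median of the 9 factors is 0.53 and that of the lineage transcription factors -0.23.

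Markers of other cells that use some of these factors moved with genotype too. Several, among them Prdm1, Cd34, Pax5, Cpa3, Hdc and Pf4, also stand in the lists above. For all tested genes the shares called were 16.8% higher and 16.1% lower. Long-term stem cell markers were higher in Mc5r-null, 6 of 6, with a summed level of 105 to 109 CPM in Mc5r-null libraries and 63.4 to 67.0 CPM in wild-type libraries; Procr, the protein C receptor gene, averaged 20.8 ± 0.854 CPM in Mc5r-null and 12.0 ± 0.932 CPM in wild type (SD, n = 3 each). Endothelial markers were higher as well, 8 of 9, with a summed level of 96.7 to 104 CPM in Mc5r-null libraries and 58.6 to 68.6 CPM in wild-type libraries. Endothelium is known to express Erg, Fli1, Mecom and Gata2. Most of that sum was Tie1, which stem cells also express, at 75.7 ± 2.29 CPM in Mc5r-null and 53.7 ± 5.37 CPM in wild type, while Kdr stood at 2.56 ± 0.197 CPM in Mc5r-null and 0.580 ± 0.192 CPM in wild type and Cdh5 at 3.09 ± 0.154 CPM in Mc5r-null and 2.55 ± 0.303 CPM in wild type, without a call (edgeR adjusted p = 0.183). Megakaryocyte markers were 1 higher and 1 lower of 6 tested, with a summed level of 84.7 to 90.8 CPM in Mc5r-null libraries and 86.2 to 93.6 CPM in wild-type libraries. Erythroid markers passed as higher for 7 of 8, with 158 to 159 CPM in Mc5r-null libraries and 26.0 to 27.3 CPM in wild-type libraries, and B cell markers for 2 of 4 with the other 2 lower. The part of any of these cells in the levels of the 9 factors was not tested.

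By the same measure, the profiles over the 6 libraries most like those of the remaining factors belonged to Retnlg and Plaur for Mecom (0.0459 and 0.0857), Lck and Hjurp for Prdm16 (0.0627 and 0.0662), Ormdl3 and Tecpr1 for Meis1 (0.0161 and 0.0204), and Nlgn2 and Jakmip1 for Mllt3 (0.0513 and 0.0652). For the rest they belonged to Igf1r and Plekha2 for Erg (0.0130 and 0.0187), Osbp and Pdhb for Fli1 (0.0120 and 0.0126) and Acad9 and Vti1b for Runx1 (0.0231 and 0.0270). Within a root mean square difference of 0.1 lay 4 genes for Hlf, 9 for Mecom, 21 for Mllt3, 22 for Prdm16 and 156 for Meis1. There were 735 for Runx1, 1174 for Erg and 3103 for Fli1. By this measure a gene with small differences between libraries lies near many genes, so these counts mostly restate the size of its differences.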

How the data were processed

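Total RNA of LSK cells was sequenced as stranded paired-end poly-A libraries, per the labels' protocols. The authors deposited 1 table with whole-number counts per gene, not normalized, and FPKM values, scaled for length and library, as its header names them. The submitters' processing notes give GRCm38, HISAT2, StringTie, edgeR and CASAVA 1.8 without roles; the counting program and its strand setting are not given in the sources used here. All 9 genes had the coordinates of GENCODE M21.

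Counts were tested in R 4.3.3 with edgeR 4.0.16 (filterByExpr with a minimum count of 10 and total of 15, TMM scaling, robust quasi-likelihood F-test, Benjamini-Hochberg over 15257 genes). An SE is the log2 fold change divided by the square root of F. The code was tested on simulated data. The alternatives were RLE and upper-quartile scaling, DESeq2 1.42.0, limma-voom (limma 3.58.1), other filters, a replicate block, no immunoglobulin genes, a threshold of 0.01 and leaving out each library.

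Members and lists were chosen with earlier results of these data known. The rule for naming genes took the 9 members, Mc5r, up to 3 called genes of each list by p and the 2 genes most like each member; further genes named, among them Tal1, Lyl1, Lmo2, Cbfb, Hoxa9, Dbp, Runx3, Ikzf3, Tek, Cd34, Epas1, Pf4, Xist, the Y-linked genes and the single cell type markers, were chosen after their values were seen. A gene that the rule took is not reported here. Nothing in the labels says that equal replicate numbers share an animal or batch, so the main fit used no block. Libraries of a genotype differed by more than counting noise, and none was left out. No sample served as more than 1 replicate.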

Additional observations from a re-analysis of the deposited data

How the results depend on the processing

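Scaling by RLE or upper quartile, limma-voom, other filters, the replicate block and leaving out the immunoglobulin genes changed no call of the 9 members. Mecom, Prdm16, Meis1, Mllt3 and Erg also passed with DESeq2, at 0.01 and without any 1 library. All genes called higher were 1656 with DESeq2 and 1552 at 0.01, and those called lower 1446 and 1444. Members called lower were 0 with DESeq2 and at 0.01, and 0 to 1 without 1 library, and so were partners called lower with DESeq2 and at 0.01 (0 each). Other stem cell regulators called higher were 5 with DESeq2, 4 with the replicate block, 3 at 0.01 and 3 to 6 without 1 library. Lineage factors called higher were 2 with limma-voom and 1 to 2 without 1 library, and relatives called lower 1 to 2. The log2 fold change of Hlf was 0.62 with DESeq2, a call, and 0.49 to 0.88 without 1 library; that of Runx1 was -0.20 to -0.02 and that of Fli1 -0.15 to -0.10. Fli1 stood at -0.12 with DESeq2 and at 0.01, without a call. Leaving out 1 library turned the sign of Eif2s3y (-0.12 to 0.0021), Tal1 (-0.014 to 0.035), Lyl1 (-0.0047 to 0.077) and Nap1l4 (-0.087 to 0.19), none called. The cause was not tested. Same-numbered libraries deviated with correlations of 0.00255, -0.0408 and -0.024, and differently numbered ones with -0.0237 to 0.0482. These values cannot show that the libraries are unpaired, since a weak shared part would hardly change them. The labels do not say whether equal numbers share an animal or batch. The replicate block called 2254 genes higher and 2148 lower. With 3 libraries a group, no exact test of a single value can go below 0.1. The spread of Gata2, Hlf and Runx1 between libraries limits what this number of libraries can show.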
